A study of Mus musculus with 24 samples.

Results

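The interleukin 6 (IL-6) family ligands and the colony stimulating factors (CSFs) were examined in mouse bone marrow-derived macrophages stimulated with lipopolysaccharide (LPS). The 10 genes were Il6, Lif, Osm, Csf1, Csf2 and Csf3, which encode ligands, and Csf1r, Csf2ra, Csf2rb and Csf3r, which encode receptor chains. They were chosen by symbol, and all 10 had a row among the 24273 genes of the deposited table. The 24 libraries fell into 8 groups of 3, with macrophages labelled LysM-Cre (the control) or FosKO left unstimulated (0 h) or given LPS at 100 ng/ml for 0.5, 1 or 2 h, and the study asked which genes FOS controls. FosKO stands for Fos fl/fl mice with LysM-Cre, which is Cre placed in the Lyz2 gene and active in the myeloid lineage. The controls are plain LysM-Cre in the series and Fos fl/+ with LysM-Cre in the study's text, so the sources differ on whether they carried a floxed allele. Both genotypes were on C57BL/6. All groups were differentiated in L-cell conditioned medium, which supplies CSF1 protein, and were rested overnight in low serum without it before LPS. Ages and the number of donor mice are not given in the sources used here. The study's methods call the replicates biological without saying whether they were separate animals or cultures, so the p-values measure the spread between these libraries.

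IL-6, leukemia inhibitory factor (LIF, from Lif) and oncostatin M (OSM, from Osm) are small helical cytokines that signal through receptor complexes sharing gp130, the product of Il6st, and activate JAK kinases and STAT3. The CSFs control the production and survival of myeloid cells. CSF1 (M-CSF, from Csf1) acts through the tyrosine kinase CSF1R, on which macrophages depend. CSF2 (GM-CSF, from Csf2) binds an alpha chain from Csf2ra and a beta chain from Csf2rb and activates STAT5, and CSF3 (G-CSF, from Csf3) acts through the receptor from Csf3r, best known on neutrophils. FOS pairs with JUN proteins to form AP-1, and AP-1 and NF-kB binding sites are known in the control regions of several of these cytokine genes.

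Values are the authors' normalised log2 values, compared within a gene only because they are not corrected for gene length. A difference of 1 is 2-fold. Genes with low values lie close to a floor on this scale, so their fold changes are understated, and the depth of the libraries is not known from the table. Differences were tested with limma over 13901 genes that passed a filter on low values, and a gene was called at a Benjamini-Hochberg adjusted p under 0.05. Of the 10 genes 9 passed the filter, the exception being Csf3.

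The labels were checked first. In the libraries labelled LysM-Cre, Fos was 11.17, 11.07 and 11.10 unstimulated, 13.43, 13.57 and 13.56 after 0.5 h, 11.02, 11.07 and 11.34 after 1 h, and 9.61, 9.42 and 9.52 after 2 h. In those labelled FosKO it lay between 12.41 and 12.93 in all 12 libraries with no induction at 0.5 h (log2 change 0.15, limma adjusted p = 0.396). Fos mRNA was therefore higher, not lower, in the FosKO-labelled libraries except after 0.5 h, when it was lower by 0.77. One value per gene does not show whether the floxed exons were present, so the label is neither borne out nor contradicted by this row alone. Lyz2, the gene that carries Cre, separated the genotypes much further, at 10.87 to 11.57 in the 12 LysM-Cre libraries and 16.08 to 16.33 in the 12 FosKO libraries, a 35.9-fold difference at 0 h. The genotypes thus differed in Lyz2 mRNA as well as in their Fos label, and the 2 cannot be told apart in any genotype comparison below. For this reason groups are called by their labels throughout.

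All 6 macrophage markers (Adgre1, Cd68, Itgam, Cd14, Mertk, Fcgr1) passed the filter, and none of the T cell or B cell markers did. All 6 were called between the genotypes at 0 h in the limma fit, with Mertk (0.97), Fcgr1 (0.65) and Cd68 (0.21) higher in FosKO and Adgre1 (-0.15), Itgam (-0.19) and Cd14 (-0.22) lower. At 2 h Mertk (1.65), Fcgr1 (0.73), Cd68 (0.17) and Cd14 (0.14) were called higher, and Adgre1 (-0.05) and Itgam (-0.04) were not called. Of the markers of other cells, 2 of 3 dendritic cell, 2 of 3 fibroblast, 1 of 3 mast cell and 2 of 5 neutrophil genes also passed. On the linear scale the dendritic cell markers summed to 27.5 to 119.4 in LysM-Cre and 26.98 to 85.44 in FosKO, the fibroblast markers to 14.02 to 27.84 and 13.36 to 21.13, and the mast cell markers to 22.61 to 40.44 and 18.07 to 30.61. Zbtb46 (dendritic cells) was lower in FosKO at 2 h by 0.96, Xcr1 (dendritic cells) higher at 1 h by 0.42, and Kit (mast cells) lower by 0.43, 0.53 and 0.53 before 2 h, while the fibroblast markers were not called. The part of these markers in the genotype differences below was not tested. A set of 5 libraries (2 FosKO and 3 LysM-Cre, all at 0.5 or 1 h) held less 18S ribosomal RNA, with Rn18s-rs5 at 16.65 to 17.00 against 18.57 to 19.39 in the other 19. For the tested members and for Il6ra, Il6st, Lifr, Il27, Csf2rb2 and Socs1, calls that changed among the 19 are given beside them. Other named genes, such as Socs3 and the cell markers, were not rerun among the 19. Within the low set (1 FosKO against 1 LysM-Cre at 0.5 h, 1 against 2 at 1 h) the genotype differences were 0.58 and 1.55 for Il6, 0.34 and 0.49 for Osm, -0.83 and -0.30 for Lif, 1.14 and 0.61 for Csf1, -1.01 and -1.25 for Csf2, and 1.23 and 0.94 for Csf3r. In bulk samples fewer cells of a type and less RNA per cell cannot be told apart.

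Of the ligand genes, Il6, Lif and Csf1 had a match to the letters marked below in the 250 bases before their RefSeq start (GRCm38.p6). Those 250 bases of Csf2, which LPS also induced, held no such match and are not printed. The stretches of Il6, Lif and Csf1 are printed 5' to 3' on the gene's strand. They lie at chr5:30012864-30013113 on the plus strand, chr11:4257318-4257567 on the plus strand and chr3:107760470-107760719 on the minus strand. Capitals mark letters that match TGANTCA (AP-1) or the NF-kB letters (GGGA, any base, TTTCC) on either strand.
Il6: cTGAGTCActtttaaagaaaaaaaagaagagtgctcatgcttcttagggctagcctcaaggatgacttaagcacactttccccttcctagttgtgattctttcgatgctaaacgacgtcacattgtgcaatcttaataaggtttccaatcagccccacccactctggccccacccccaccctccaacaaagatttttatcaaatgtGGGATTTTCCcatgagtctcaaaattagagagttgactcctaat
Lif: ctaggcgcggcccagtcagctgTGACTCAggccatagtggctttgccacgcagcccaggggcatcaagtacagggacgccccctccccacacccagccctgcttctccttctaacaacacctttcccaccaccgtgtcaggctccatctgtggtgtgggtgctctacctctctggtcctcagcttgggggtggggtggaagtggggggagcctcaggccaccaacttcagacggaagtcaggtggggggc
Csf1: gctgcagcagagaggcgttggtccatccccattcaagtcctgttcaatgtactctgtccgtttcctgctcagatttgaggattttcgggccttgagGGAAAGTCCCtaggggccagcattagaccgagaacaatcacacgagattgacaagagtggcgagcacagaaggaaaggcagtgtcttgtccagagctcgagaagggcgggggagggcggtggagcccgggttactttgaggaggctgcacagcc

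The Il6 window held TGAGTCA from base -249 to -243 and GGGATTTTCC from -44 to -35, counted back from the start. The Lif window held TGACTCA from -228 to -222, and the Csf1 window held GGAAAGTCCC, the NF-kB letters on the opposite strand, from -154 to -145. Windows were found for 6 of the 10 genes. The other 3 windows, of Csf2, Csf2ra and Csf3r, held neither of these motifs, although that of Csf2ra held TGACGTCA (the cyclic AMP response element) from -92 to -85. The RefSeq start of Csf2 lies 232 bases upstream of the GENCODE start, so its window covers another stretch than the 250 bases before the GENCODE start. Over all 32851 windows of the same length, the AP-1 letters were in 6.75%, the NF-kB letters in 0.356% and TGACGTCA in 1.55%. A match is a description of letters, not a binding site.

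Comparing the genotypes at each time answered how the 10 genes differed with the FosKO label. At 0 h, 4 of the 9 tested genes were called, 3 higher (Osm, Csf1, Csf3r) and 1 lower (Csf1r) in the FosKO-labelled libraries. At each of the 3 LPS times 7 of 9 were called, 5 higher (Il6, Osm, Csf1, Csf2ra, Csf3r) and 2 lower (Lif, Csf2). Among all tested genes 35.4%, 40.9%, 33.9% and 44.6% were called at these times, with 19.5%, 21.2%, 18% and 24.4% higher and 15.9%, 19.7%, 15.9% and 20.3% lower. The members called with at least a 2-fold difference numbered 2, 3, 3 and 2 of 9 at the 4 times, against 1.47%, 2.16%, 1.7% and 1.99% of all tested genes. The median difference over the 9 genes was 0.07, 0.13, 0.12 and 0.17, against 0.00 at each time over all genes.

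**Figure D1:**
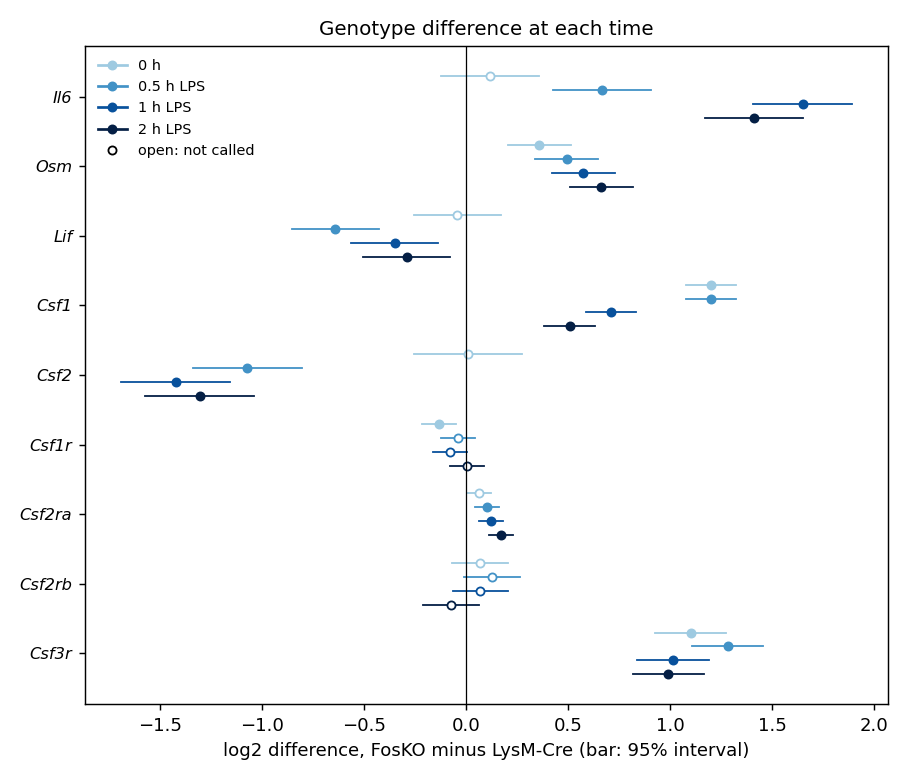
Log2 difference, FosKO minus LysM-Cre, of the 9 tested genes at 0, 0.5, 1 and 2 h of LPS (points), with 95% intervals from the limma fit not adjusted for the number of genes (bars) and open points where the adjusted p missed 0.05. Il6, Osm, Csf1 and Csf3r lie to the right of zero and Lif and Csf2 to the left once LPS was given, while the other 3 receptor chains stay within 0.17 of zero.

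Il6 (chr5:30013114-30019981, plus strand, GRCm38) encodes the founding cytokine of the family. In the LysM-Cre libraries it was 4.84, 4.81 and 4.83 unstimulated, 4.98, 5.17 and 4.96 after 0.5 h, 6.51, 6.45 and 6.50 after 1 h, and 9.65, 9.60 and 9.92 after 2 h. In the FosKO libraries it was 4.86, 4.84 and 5.12 unstimulated, 5.54, 5.63 and 5.94 after 0.5 h, 8.03, 8.05 and 8.32 after 1 h, and 11.10, 10.96 and 11.33 after 2 h. The lowest FosKO library barely exceeded the highest LysM-Cre library before LPS, and every FosKO library was above every LysM-Cre library at each LPS time. Unstimulated, the difference was 0.12 ± 0.12 (SE, n = 3 per group, limma adjusted p = 0.482). With LPS it was 0.66 ± 0.12 after 0.5 h (adjusted p = 9.09e-05), 1.65 ± 0.12 after 1 h (1.17e-09) and 1.41 ± 0.12 after 2 h (5.54e-09). At 1 h Il6 was thus 3.13-fold higher in the FosKO-labelled libraries.

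Within a genotype, Il6 was not called at 0.5 h in LysM-Cre (log2 change 0.21, limma adjusted p = 0.365), whereas in FosKO it was higher by 0.76 (0.000116). By 2 h it had risen 29.8-fold in LysM-Cre and 73.0-fold in FosKO, and it was still rising between 1 h and 2 h in both, by 3.24 and 3.00. The rise itself was larger in FosKO by 1.53 ± 0.16 at 1 h (adjusted p = 7.16e-06) and 1.29 ± 0.16 at 2 h (1.21e-05), while at 0.5 h the difference in rise of 0.55 was not called (0.59).

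Csf2 (chr11:54247271-54249667, minus strand), the GM-CSF gene, went the other way. In the LysM-Cre libraries it was 3.75, 3.93 and 3.79 unstimulated, 5.06, 5.21 and 5.25 after 0.5 h, 8.16, 8.03 and 8.12 after 1 h, and 6.44, 6.49 and 6.60 after 2 h. In the FosKO libraries it was 3.82, 3.80 and 3.88 unstimulated, 4.24, 3.94 and 4.12 after 0.5 h, 6.82, 6.50 and 6.72 after 1 h, and 5.34, 4.81 and 5.46 after 2 h. The groups overlapped before LPS, and every FosKO library was below every LysM-Cre library at each LPS time. From a difference of 0.01 ± 0.13 without LPS (limma adjusted p = 0.969) Csf2 went to -1.07 ± 0.13 after 0.5 h (9.48e-07), -1.43 ± 0.13 after 1 h (3.41e-08) and -1.31 ± 0.13 after 2 h (5.9e-08). At 1 h Csf2 was therefore 2.69-fold lower in the FosKO-labelled libraries.

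Both genotypes shared the shape of the Csf2 course, a peak at 1 h followed by a fall. The peak was 19.5-fold above 0 h in LysM-Cre and 7.20-fold in FosKO, and Csf2 then fell by 1.59 and by 1.48 between 1 h and 2 h. In FosKO the value at 0.5 h was not called against 0 h (0.27, adjusted p = 0.257), while in LysM-Cre it had already risen by 1.35 (1.34e-07). The rise was smaller in FosKO throughout, and the difference in rise was -1.08 ± 0.18 after 0.5 h (limma adjusted p = 0.0105), -1.43 ± 0.18 after 1 h (6.86e-05) and -1.32 ± 0.18 after 2 h (3.12e-05). At 0.5 h that call was lost among the high 18S libraries alone (-1.11, 0.105) and without LysM-Cre replicate 3 at 0.5 h (-1.04, 0.0501), with its size kept.

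Over the 9 tested genes, 1, 3 and 3 were called for a different response at the 3 LPS times, against 0.115%, 1.22% and 15% of all tested genes. These were Csf2 at each time and Il6 and Csf1 at 1 h and 2 h. With a replicate block within genotype, 7 of the 9 were called at 2 h. That block added Osm (0.30, limma adjusted p = 0.0169), Csf1r (0.14, 0.0273), Csf2ra (0.11, 0.0281) and Csf2rb (-0.14, 0.0282).

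**Figure D2:**
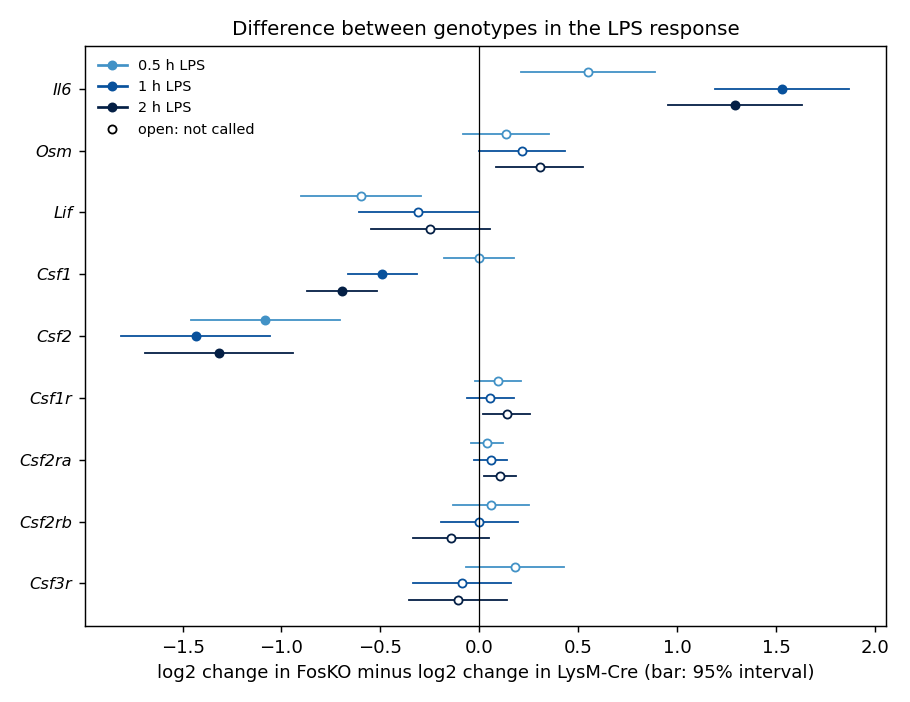
Difference between genotypes in the LPS response, that is the log2 change from 0 h in FosKO minus the log2 change in LysM-Cre, at 0.5, 1 and 2 h (points) with 95% intervals from the limma fit not adjusted for the number of genes (bars) and open points where the adjusted p missed 0.05. The filled points are Csf2 to the left at every time, Csf1 to the left at 1 and 2 h and Il6 to the right at 1 and 2 h.

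Csf1 (chr3:107741048-107760469, minus strand) encodes the growth factor that keeps macrophages alive. In the LysM-Cre libraries it was 9.84, 9.75 and 9.72 unstimulated, 10.23, 10.06 and 10.17 after 0.5 h, 12.10, 12.05 and 12.08 after 1 h, and 12.82, 12.79 and 12.83 after 2 h. In the FosKO libraries it was 10.82, 11.05 and 11.03 unstimulated, 11.30, 11.33 and 11.41 after 0.5 h, 12.67, 12.76 and 12.92 after 1 h, and 13.30, 13.29 and 13.36 after 2 h. Unlike Il6 and Csf2, Csf1 was already called between the genotypes without LPS, and its groups did not overlap at any time. The difference was 1.2 ± 0.06 both unstimulated (limma adjusted p = 8.14e-12) and after 0.5 h (5.83e-12), 0.71 ± 0.06 after 1 h (1.37e-08) and 0.51 ± 0.06 after 2 h (7.15e-07), so that a 2.30-fold excess at 0 h narrowed to 1.42-fold at 2 h.

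Csf1 rose through the whole course in both genotypes, reaching 8.26-fold in LysM-Cre and 5.10-fold in FosKO at 2 h. At 0.5 h the rise was 0.38 in each, and the difference in rise was 0.00 (95% interval -0.18 to 0.17). Later the log2 rise was smaller in FosKO, the difference being -0.49 ± 0.08 after 1 h (limma adjusted p = 0.00204) and -0.69 ± 0.08 after 2 h (7.31e-06). This holds for the fold rise only, from a higher 0 h level. On the linear scale the geometric means at 0, 1 and 2 h were 871, 4320 and 7191 in LysM-Cre. In FosKO they were 2001, 7066 and 10210, so the linear gain was larger in FosKO. The 1 h call was lost among the high 18S libraries alone (-0.46, 0.0739).

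Osm (chr11:4236420-4241026, plus strand) lies 16530 bases from Lif on the same strand. In LysM-Cre it was 7.27, 7.36 and 7.27 unstimulated, 8.09, 7.93 and 8.21 after 0.5 h, 8.0, 7.94 and 8.23 after 1 h, and 7.53, 7.50 and 7.67 after 2 h. In FosKO it was 7.63, 7.66 and 7.69 unstimulated, 8.55, 8.56 and 8.60 after 0.5 h, 8.57, 8.63 and 8.69 after 1 h, and 8.17, 8.16 and 8.35 after 2 h. Every FosKO library was above every LysM-Cre library of its time, by 0.36 ± 0.07 unstimulated (limma adjusted p = 0.000704), 0.49 ± 0.07 after 0.5 h (1.82e-05), 0.57 ± 0.07 after 1 h (3.95e-06) and 0.66 ± 0.07 after 2 h (3.87e-07). Osm had made its rise by 0.5 h (1.71-fold in LysM-Cre and 1.88-fold in FosKO), with no call between 0.5 h and 1 h (adjusted p = 0.88 and 0.613), and a fall of 0.49 and 0.40 between 1 h and 2 h. A larger rise in FosKO at 2 h, 0.30 ± 0.10, narrowly missed the threshold (adjusted p = 0.0552) and passed it in 5 of 22 alternative analyses, among them the high 18S libraries alone (0.0313) and the replicate block (0.0153).

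Lif (chr11:4257557-4272514, plus strand) followed the course of Csf2 rather than that of its neighbour Osm. In LysM-Cre it was 3.84, 3.94 and 3.88 unstimulated, 4.89, 4.81 and 4.91 after 0.5 h, 7.15, 7.18 and 7.09 after 1 h, and 6.39, 6.30 and 6.07 after 2 h. In FosKO it was 3.83, 3.89 and 3.81 unstimulated, 4.08, 4.31 and 4.30 after 0.5 h, 6.84, 6.59 and 6.93 after 1 h, and 5.77, 5.99 and 6.12 after 2 h. The genotypes overlapped at 0 h and 2 h, and all FosKO libraries were lower at 0.5 h and 1 h. Lif differed by -0.04 ± 0.10 unstimulated (limma adjusted p = 0.783), -0.64 ± 0.10 after 0.5 h (3.52e-05), -0.35 ± 0.10 after 1 h (0.0106) and -0.29 ± 0.10 after 2 h (0.0246). The 1 h call was lost among the high 18S libraries (-0.39, 0.115) and without FosKO replicate 2 (-0.26, 0.0844). The 2 h call was lost under quantile normalisation (-0.24, 0.078), with only the groups compared in the fit (0.0804), and on leaving out FosKO replicate 1 (0.154), LysM-Cre replicate 1 (0.126) or LysM-Cre replicate 2 (0.0737).

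Lif peaked at 1 h, 9.52-fold above 0 h in LysM-Cre and 7.69-fold in FosKO, and fell by 0.89 and 0.83 between 1 h and 2 h. At 0.5 h it had risen 1.98-fold in LysM-Cre. The 1.31-fold value in FosKO at 0.5 h (limma adjusted p = 0.0261) lost its call with only the groups compared in the fit (0.187) and without FosKO replicate 1 or 3 at 0 h or replicate 2 or 3 at 0.5 h (0.0648 to 0.117). The difference in rise was not called at any time (-0.60, -0.31 and -0.25 over the 3 LPS times, adjusted p = 0.253, 0.636 and 0.288).

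Csf3 (chr11:98701263-98703629, plus strand), the G-CSF gene, did not pass the filter. It was between 1.17 and 1.29 in all 12 libraries at 0 h and 0.5 h. At 1 h it was 1.57, 1.78 and 1.96 in LysM-Cre and 1.45, 1.87 and 1.54 in FosKO, and at 2 h 1.19, 1.74 and 1.37 in LysM-Cre and 1.97, 1.73 and 1.70 in FosKO. The genotypes overlapped at both times, and no difference was tested at this level.

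**Figure D3:**
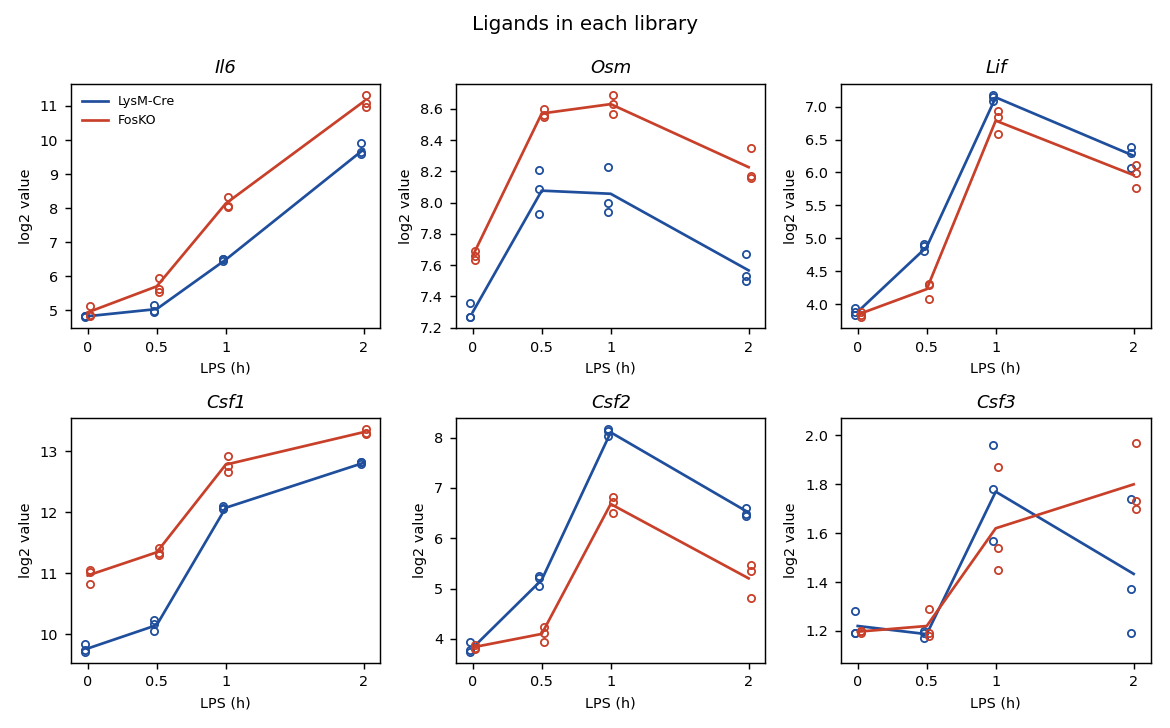
Authors' normalised log2 value of the 6 ligand genes in each library (circles) against hours of LPS, with lines through the mean of 3 libraries for LysM-Cre (blue) and FosKO (red); each panel has its own scale. Il6 and Csf1 climb to 2 h, Csf2 and Lif peak at 1 h, Osm levels off from 0.5 h and falls by 2 h, and Csf3 stays below 2.

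With LPS, 4 of the 9 tested genes were called against 0 h at 0.5 h in LysM-Cre (Lif, Osm, Csf1, Csf2), 7 at 1 h and 6 at 2 h, all higher. In FosKO the counts were 4 (Il6, Lif, Osm, Csf1), 7 and 7, again all higher. The share of all tested genes called was 7.24%, 35.8% and 60.8% in LysM-Cre (5.09%, 19.2% and 30.6% higher) and 5.92%, 32.6% and 62.1% in FosKO (4.45%, 17.6% and 32.6% higher). Between 0.5 h and 1 h the test called 4 of the 9 in each genotype (Il6, Lif, Csf1, Csf2), against 26.8% and 27.5% of all genes. For this step in FosKO, 7 members were called under quantile normalisation and 7 with a replicate block within genotype. That block added Csf2ra (0.07, limma adjusted p = 0.0241), Csf2rb (-0.11, 0.00893) and Csf3r (-0.20, 0.0422). From 1 h to 2 h the test called 7 in LysM-Cre and 6 in FosKO, against 52.3% and 50.7%. Against 0 h, all 5 tested ligand genes were called at 1 h and 2 h in both genotypes, and the other calls were Csf1r and Csf2ra, whose direction against 0 h reversed under quantile normalisation.

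Csf3r (chr4:126024550-126044440, plus strand) encodes the G-CSF receptor and was the receptor chain with the largest genotype difference of the 4. In LysM-Cre it was 9.28, 9.08 and 9.27 unstimulated, 9.28, 9.34 and 9.24 after 0.5 h, 9.31, 9.33 and 9.42 after 1 h, and 9.23, 9.37 and 9.36 after 2 h. In FosKO it was 10.16, 10.28 and 10.48 unstimulated, 10.47, 10.41 and 10.81 after 0.5 h, 10.31, 10.40 and 10.38 after 1 h, and 10.33, 10.29 and 10.32 after 2 h. All 12 FosKO libraries were above all 12 LysM-Cre libraries. They differed by 1.1 ± 0.08 unstimulated (limma adjusted p = 4.75e-09), 1.28 ± 0.08 after 0.5 h (4.19e-10), 1.01 ± 0.08 after 1 h (1.25e-08) and 0.99 ± 0.08 after 2 h (9.2e-09). No LPS time was called against 0 h in either genotype. In FosKO the value at 0.5 h, higher than at 0 h by 0.26 (adjusted p = 0.0763), was called with the replicate number as a block (0.0406), as was its difference of -0.20 between 1 h and 0.5 h (0.0815 without the block, 0.0475 with it).

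Because Csf3r is best known on neutrophils, neutrophil markers were read beside it. Of 5 markers 4 were in the table and 2 passed the filter. Summed on the linear scale over all 4 times they were 48.7 to 99.5 in the LysM-Cre libraries and 32.5 to 53.3 in the FosKO libraries. At 0 h the sums were 48.68 to 58.38 and 32.47 to 38.36, and at 2 h 73.72 to 99.52 and 45.8 to 53.28. The part of neutrophils in the Csf3r difference was not tested. S100a9 was lower in FosKO at each time, by 0.81 at 0 h (limma adjusted p = 0.000132) and 1.07 at 2 h (3.43e-06). For S100a8 the difference was -0.47 unstimulated (0.0134), -0.18 after 0.5 h, which was not called (0.356), and -0.60 after 2 h (0.00174). Ly6g and Elane, the defining markers, were at the floor of the table in every group.

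Csf1r (chr18:61100598-61132149, plus strand), the CSF1 receptor and a hallmark of macrophages, stayed between 14.95 and 15.28 in all 24 libraries. It was 15.15, 15.12 and 15.10 in LysM-Cre and 14.97, 14.95 and 15.05 in FosKO at 0 h, a difference of -0.14 ± 0.04 (limma adjusted p = 0.0106) that was lost without FosKO replicate 2 (-0.11, 0.0558). At 0.5, 1 and 2 h the groups overlapped and the differences were -0.04 (95% interval -0.12 to 0.04), -0.08 (-0.16 to 0.00) and 0.00 (-0.08 to 0.08). With quantile normalisation the 1 h and 2 h differences were -0.22 and -0.30 and were called (6.4e-05 and 1.06e-06), and the 1 h difference was also called without FosKO replicate 3 (-0.12, 0.0276). Csf1r was higher than at 0 h by 0.12 at 1 h in LysM-Cre and by 0.18 at 1 h and 0.15 at 2 h in FosKO, but under quantile normalisation these were -0.10, -0.10 and -0.40, so no direction is given for its LPS response. Among the high 18S libraries the 1 h call in LysM-Cre was lost (0.09, 0.346), as was a fall of 0.11 from 1 h to 2 h (-0.08, 0.343). In FosKO the value at 0.5 h, 0.12 above that at 0 h, was called with the replicate block (0.0485).

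Csf2ra (chr19:61223957-61228429, minus strand), the alpha chain of the GM-CSF receptor, ranged from 12.15 to 12.39 in LysM-Cre and from 12.24 to 12.59 in FosKO. At 2 h it was 12.36, 12.39 and 12.32 in LysM-Cre against 12.48, 12.51 and 12.59 in FosKO. The groups did not overlap at any time. The difference was 0.06 unstimulated (limma adjusted p = 0.0893), 0.10 after 0.5 h (0.00633), 0.12 after 1 h (0.00201) and 0.17 after 2 h (4.64e-05), each with an SE of 0.03, but under quantile normalisation the LPS times gave -0.000688, 0.04 and 0.03 (0.99, 0.42 and 0.515). LPS moved it upwards by 0.17 in LysM-Cre and 0.27 in FosKO at 2 h, and under quantile normalisation downwards by 0.14 and 0.09. Its LysM-Cre calls at 1 h against 0 h (0.08) and at 2 h against 1 h (0.09) were lost among the high 18S libraries (0.333 and 0.0627).

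Csf2rb (chr15:78325752-78353847, plus strand) encodes the common beta chain shared by the receptors for GM-CSF, IL-3 and IL-5. It ranged from 12.33 to 12.48 in LysM-Cre and from 12.30 to 12.68 in FosKO, and the groups overlapped at 0, 1 and 2 h. The differences were 0.07 (95% interval -0.07 to 0.20), 0.13 (-0.01 to 0.26), 0.07 (-0.07 to 0.20) and -0.08 (-0.21 to 0.06) at the 4 times, none called in the limma fit (adjusted p = 0.138 to 0.468), although the 2 h value was called under quantile normalisation (-0.22, 0.00151). No LPS time was called against 0 h in either genotype (-0.09 to 0.08), but under quantile normalisation Csf2rb was lower and called at 1 h (-0.21 in both) and 2 h (-0.23 in LysM-Cre and -0.44 in FosKO), and the FosKO 2 h value of -0.09 was called with a replicate block within genotype (0.0185) and without FosKO 0 h replicate 1 (-0.16, 0.0335). Its paralogue Csf2rb2, which encodes an IL-3-specific beta chain, lies 20030 bases away on the opposite strand. Their longest coding transcripts aligned over 3108 bases at 95.1% identity, so reads may have been split between them and both rows are uncertain. Csf2rb2 was not called between the genotypes either, with differences of 0.06, 0.07, 0.04 and 0.04, but under quantile normalisation its 2 h value was -0.12 and called, and without FosKO replicate 1 its 0 h value was 0.10 and called (0.0417).

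**Figure D4:**
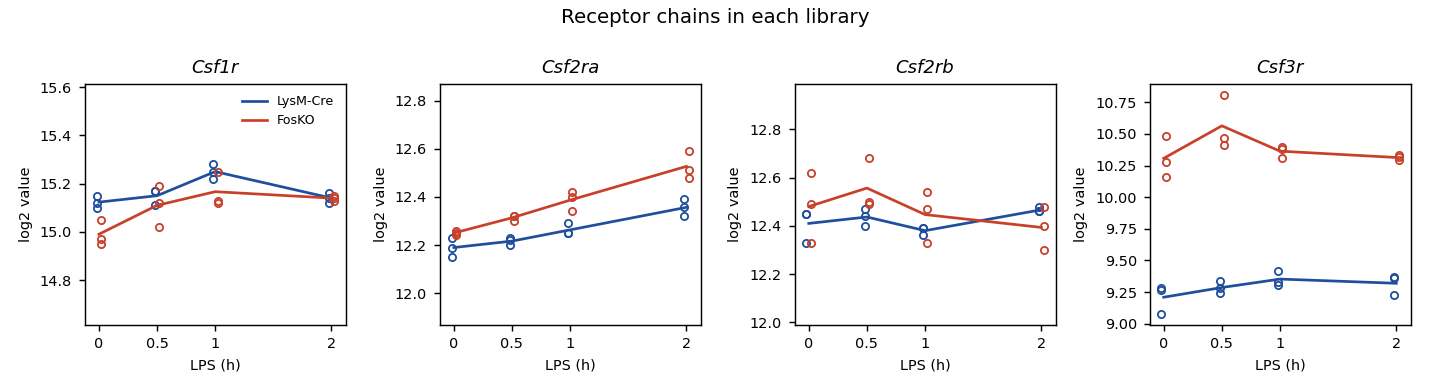
Authors' normalised log2 value of the 4 receptor chain genes in each library (circles) against hours of LPS, with lines through the mean of 3 libraries for LysM-Cre (blue) and FosKO (red); each panel has its own scale and spans at least 1 log2 unit. Csf3r separates all 12 FosKO from all 12 LysM-Cre libraries, while Csf1r, Csf2ra and Csf2rb stay within a narrow band.

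Il6ra and Lifr, partner chains of the IL-6 family receptors, were lower in the FosKO-labelled libraries at all 4 times. Il6ra, the IL-6 binding chain, was 10.6 ± 0.06 (SD, n = 3) in LysM-Cre and 10.4 ± 0.06 in FosKO at 0 h, and 9.77 ± 0.03 and 9.29 ± 0.03 at 2 h. The differences were -0.28, -0.24, -0.31 and -0.48 at the 4 times (limma adjusted p = 2.24e-06, 1.31e-05, 6.07e-07 and 9.27e-10). LPS lowered Il6ra by 2 h in both genotypes, 1.84-fold in LysM-Cre and 2.11-fold in FosKO. Il6st, which encodes gp130, also fell by 2 h, by 0.77 in each genotype. Its genotype differences of -0.14, -0.24, -0.13 and -0.14 were called at 0, 0.5 and 2 h. The 0 h and 2 h calls were lost without the filter (0.0657 and 0.0551) and without single libraries of either genotype, and the 0 h call also with no trend (0.055) and with only the groups compared (0.0812). The 1 h difference was called in 5 alternatives, namely quantile normalisation (0.00347), TMM factors (0.0383), the replicate block (0.0411), the 18S term (0.00999) and without FosKO replicate 3 (0.0116).

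Lifr, which pairs with gp130 to bind LIF, was 8.53 ± 0.05 in LysM-Cre and 7.69 ± 0.07 in FosKO at 0 h, and 8.01 ± 0.07 and 7.46 ± 0.03 at 2 h. It was lower in FosKO by 0.84, 1.01, 0.72 and 0.55 at the 4 times (limma adjusted p = 1.76e-08, 9.47e-10, 1.2e-07 and 2.28e-06). So both the ligand gene Lif, once LPS was given, and the receptor gene Lifr, at all times, were lower in these libraries. Osmr, which pairs with gp130 to bind OSM, and Il34, the other ligand of CSF1R, were at -1.41 to -1.25 and -1.14 to -0.75 in all libraries and did not pass the filter.

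The wider pathway was read from a list of 30 genes of related ligands, receptor chains, JAKs, STATs and SOCS proteins, of which 26 were in the table and 19 were tested. In FosKO against LysM-Cre, 10 of them were higher and 4 lower without LPS, and the numbers higher and lower were then 8 and 6, 7 and 5, and 8 and 5 over the LPS times. That is 14, 14, 12 and 13 of 19, against 35.4%, 40.9%, 33.9% and 44.6% of all tested genes, and the median difference was 0.11, 0.09, 0.04 and 0.07, against 0.00 at each time over all genes. With LPS, 2, 11 and 14 of the 19 were called in LysM-Cre over the 3 times, against 7.24%, 35.8% and 60.8% of all genes, and 4, 10 and 15 in FosKO, against 5.92%, 32.6% and 62.1%.

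Besides Lifr, the listed genes with a called genotype difference of at least 2-fold were Il27 and Socs1. Il27, a subunit of IL-27 (a cytokine whose receptor also uses gp130), was 11.2 ± 0.11 in LysM-Cre and 12.7 ± 0.07 in FosKO at 2 h, and its differences were 0.76, 1.12, 1.58 and 1.48 (limma adjusted p = 0.000123, 9.09e-07, 1.33e-08 and 1.75e-08). Its rise was larger in FosKO after 1 h (by 0.82, 0.0276) and after 2 h (by 0.72, 0.0109), but the earlier call was lost among the high 18S libraries (0.83, 0.105) and on leaving out any of 8 single libraries (LysM-Cre 0 h replicates 1 to 3, LysM-Cre 1 h replicates 2 and 3, FosKO 0 h replicate 1, FosKO 1 h replicates 2 and 3; 0.0543 to 0.0944), and the later one under quantile normalisation (0.51, 0.0689). Socs1, a feedback inhibitor of JAKs, was 9.61 ± 0.07 and 10.5 ± 0.05 at 2 h. Its differences were 0.66, 1.08, 0.41 and 0.85, and the 1 h call (0.0191) was lost among the high 18S libraries (0.097) and on leaving out FosKO replicate 2 (0.0717), LysM-Cre replicate 1 (0.0653) or LysM-Cre replicate 3 (0.0517). Socs3, the inhibitor that binds gp130, is named after its values were seen, as the listed gene with the fastest LPS response. It rose 11.4-fold in LysM-Cre and 8.10-fold in FosKO by 0.5 h, and was lower in FosKO at that time by 0.41 (6.39e-05). At 0 h the Socs3 difference was 0.08 and not called (0.409). The mean was 13.83 in LysM-Cre and 13.72 in FosKO at 1 h, and 13.70 and 13.83 at 2 h.

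**Figure D5:**
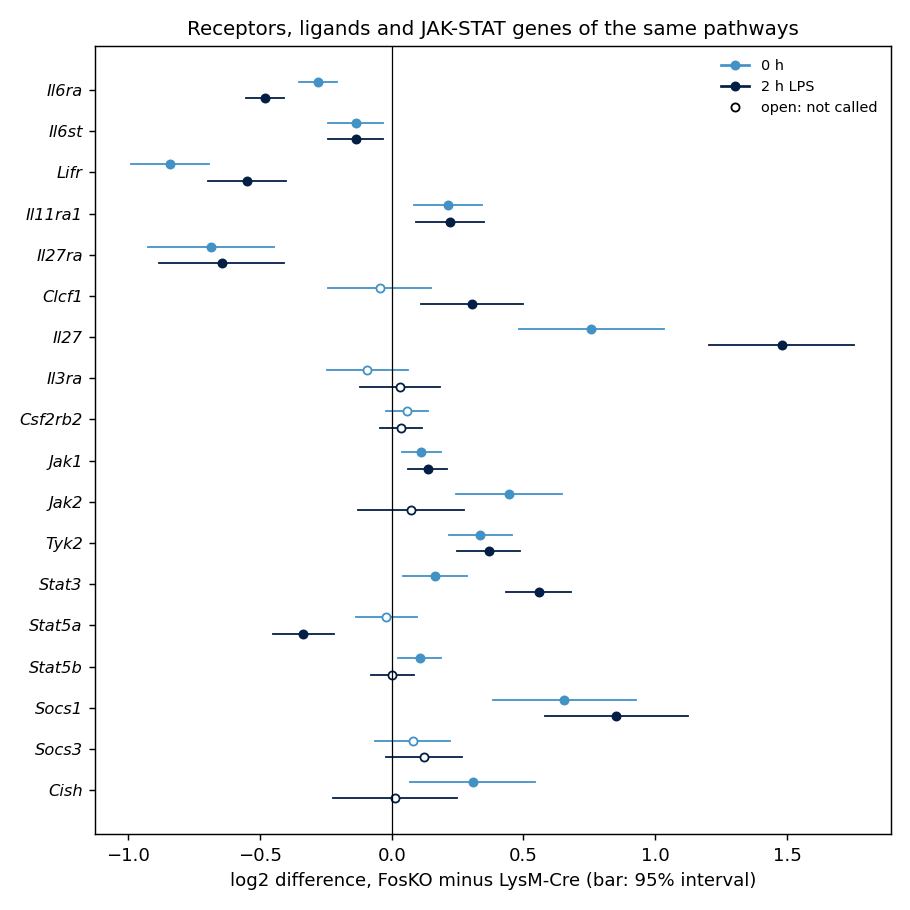
Log2 difference, FosKO minus LysM-Cre, of 18 of the 19 tested pathway genes at 0 h (light blue) and 2 h of LPS (dark blue), with 95% intervals from the limma fit not adjusted for the number of genes (bars) and open points where the adjusted p missed 0.05. Il6ra, Il6st, Lifr and Il27ra lie to the left at both times, and Il27 and Socs1 lie to the right at both.

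The genes whose values were most like each member over the 24 libraries were ranked by Pearson correlation, as a description only, since the libraries share treatment times and genotypes. Il27 was first for Il6 (r = 0.994), followed by Nck1 (0.991) and Edn1 (0.991). For Csf2 they were Flrt3 (0.978), Cdc42ep4 (0.978) and Ppp1r18 (0.965), and for Lif Zswim4 (0.989), Bcl2l11 (0.983) and Zc3h12c (0.982). Csf1 was most like Etf1 (0.990), Clec4d (0.988) and Irg1 (0.988), and Osm most like Id2, Rgs1 and Ppp1r15a (0.917, 0.917 and 0.915). For Csf3r they were Hp (0.989), P2rx4 (0.988) and Aif1 (0.983). The other 3 receptor genes had weaker matches in Csf1r (Ankrd27, 0.850) and Csf2rb (Sugp1, 0.711) and a closer one in Csf2ra (Procr, 0.953).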

How the data were processed

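RNA from 24 samples of LysM-Cre and FosKO bone marrow-derived macrophages was sequenced by the authors. Per the labels, their processing used STAR 2.5.2a, RSEM 1.2.31 and DESeq2 1.16.1 with GRCm38. The deposited table holds normalised log2 values of 24273 genes (-2.22 to 19.39), which look like regularised log values. Raw counts were not analysed here. The values of 1 pathway gene are not reported here, although the list counts include it. Groups were taken from the sample titles. The log2 values were fitted as deposited with limma 3.58.1 in R 4.3.3 (8 group means, empirical Bayes with a trend, 16 residual degrees of freedom) for 17 comparisons. Tested genes (13901) had a linear value (2 raised to the log2 value) of at least 5 in at least 3 libraries. The fit was tested on simulated data, and the outcome of that test is not given here. Identity between paralogues was from blastn 2.17.0, coordinates were from GENCODE M21, and motifs were searched on both strands.

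The members and lists were chosen with earlier results of these data known. Named were all 10 members, 6 partner receptor or ligand genes, pathway genes called with at least a 2-fold genotype difference, the 3 genes most correlated with each tested member, Fos, Lyz2 and cell markers. Replicate numbers occur in every group. The fit has no block because the study states none. Deviations of same-numbered libraries correlated above 0.1 in 13 of 42 pairs. Every pair did so in only 2 of 14 comparisons (FosKO 0.5 h against 0 h and 1 h against 0.5 h), where r ran from 0.134 to 0.706. These counts pool pairs between the genotypes with pairs within a genotype, so they cannot exclude a pairing within genotype. For those 2 comparisons the replicate block raised the members called from 4 to 6 and from 4 to 5. The replicate block within genotype gave 7 for FosKO 1 h against 0.5 h, and 7 instead of 3 for the difference in response at 2 h. Alternatives were quantile normalisation, TMM factors (the trimmed mean of M values, written in R), no filter, a pseudocount of 1, no trend, only the groups compared, replicate blocks, an 18S term, high 18S libraries alone, and leaving out each library.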

Additional observations from a re-analysis of the deposited data

Results flagged for a closer look

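The response to LPS differed between the genotypes for 3 of the 9 tested genes, by the test of the difference itself (limma, adjusted p over 13901 genes). After 0.5, 1 and 2 h, 1, 3 and 3 of the 9 were called, against 0.115%, 1.22% and 15% of all tested genes. For Csf2 the log2 change was smaller in FosKO, with a difference (FosKO minus LysM-Cre) of -1.08 after 0.5 h (adjusted p = 0.0105), -1.43 after 1 h (6.86e-05) and -1.32 after 2 h (3.12e-05). For Il6 it was 1.53 at 1 h (7.16e-06) and 1.29 at 2 h (1.21e-05). For Csf1 it was -0.49 at 1 h (0.00204) and -0.69 at 2 h (7.31e-06), from a level at 0 h that was higher in FosKO. Among the high 18S libraries alone, the Csf2 call at 0.5 h (-1.11, 0.105) and the Csf1 call at 1 h (-0.46, 0.0739) were lost. The Csf2 call at 0.5 h was also lost without LysM-Cre 0.5 h replicate 3 (-1.04, 0.0501). The genotypes also differed in Lyz2 at every time, and the part of that in these differences cannot be told apart. With 3 libraries a group, single libraries were not tested for standing apart.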

How the results depend on the processing

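The genotype differences of Osm, Csf1 and Csf3r at all 4 times, and of Il6 and Csf2 at the 3 LPS times, kept their direction and their call in all 15 alternatives each. Of 2574 alternative values of members, 14 changed sign with a call on at least 1 side, and these were under quantile normalisation in Csf1r, Csf2ra or Csf2rb. Sign changes of values called on neither side, which also occurred in other members, are not counted. These were the genotype differences of Csf2ra at 0.5 h (-0.000688) and Csf1r at 2 h (-0.297). In LysM-Cre they were Csf1r and Csf2ra at 1 h against 0 h (-0.0972 and -0.108), Csf1r, Csf2ra and Csf2rb at 2 h against 0 h (-0.317, -0.139 and -0.235), and Csf2ra at 2 h against 1 h (-0.0306). In FosKO they were Csf1r and Csf2ra at 1 h against 0 h (-0.105 and -0.0468) and at 2 h against 0 h (-0.404 and -0.0856), Csf1r at 1 h against 0.5 h (-0.183), and Csf2ra at 2 h against 1 h (-0.0388). Csf2rb2 reversed at 2 h between genotypes (-0.124). The cause was not tested. Quantile normalisation also lowered the share of all calls that were higher, from 55.1%, 51.9%, 53.1% and 54.6% to 45.3%, 45.6%, 42.8% and 43% for the genotypes over the 4 times, and for LPS at 0.5, 1 and 2 h against 0 h in LysM-Cre (70.3% to 48.3%, 53.8% to 37.6%, 50.3% to 40%) as well as FosKO (75.2% to 50.3%, 54% to 35.3%, 52.5% to 39.2%).

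Counts that moved by over 1.5 times were these. With the high 18S libraries alone, all genes called fell for the genotypes at 1 h (4708 to 2994), for LPS at 1 h (4970 to 3009) and 1 h against 0.5 h (3725 to 2010) in LysM-Cre, and for a different response at 0.5 h (16 to 9) and 1 h (169 to 93), where fewer libraries entered, with members called going from 1 to 0 at 0.5 h and pathway genes from 2 to 0 at 1 h. With only the groups compared, all genes called fell for FosKO at 0.5 h (823 to 301, pathway genes 4 to 2), for FosKO 1 h against 0.5 h (3819 to 2471) and for a different response at 0.5 h (16 to 6) and 1 h (169 to 112). Quantile normalisation gave 25 genes, and 1 pathway gene instead of 0, for the difference at 0.5 h, and 7 members instead of 4 for FosKO 1 h against 0.5 h. The replicate block gave 1 pathway gene for the difference at 0.5 h and left the members called between genotypes at 4, 7, 7 and 7. The replicate block within genotype gave 7 members for FosKO 1 h against 0.5 h and 7 instead of 3 for the difference at 2 h, and 25 genes and 1 pathway gene for the difference at 0.5 h. Whether a number marks 1 animal or culture across groups is not given in the sources used here, and 15 of 24 libraries were closest on average to their own number. Leaving out 1 library at a time gave 9 to 13 pathway genes (14 with all) for the genotypes at 0 h, lowest without LysM-Cre replicate 3, and 542 to 960 genes for FosKO at 0.5 h, lowest without FosKO 0.5 h replicate 3. It gave 0 to 1 members for the difference in response at 0.5 h (0 without LysM-Cre 0.5 h replicate 3), with 0 to 1 pathway genes and 9 to 24 genes, and 1 to 2 pathway genes for that at 1 h. Depth limits are not known from the table.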
